A study of Mus musculus with 8 samples.

Results

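The comparison described here asks whether loss of the transcription factor Foxp1 changed gene expression differently in 2 populations of regulatory T (Treg) cells. It was chosen as an interaction: the Foxp1-deficient minus wild-type (WT) difference in activated Treg (aTreg) cells, less the same difference in resting Treg (rTreg) cells, on a log2 scale. All 8 of the study's 8 RNA-seq libraries entered it, 2 from each of 4 groups. WT mice were Foxp3-YFP-Cre, and Foxp1-deficient mice were Foxp1fl/fl Foxp3-YFP-Cre, so that both genotypes carried a Cre recombinase expressed from the Foxp3 locus, which is active in Treg cells. Mice were C57BL/6, aged 6 to 8 weeks. Cells were sorted from spleen and peripheral lymph nodes as CD4+ YFP+, with CD44low cells taken as rTreg and CD44high cells as aTreg, together with a gate on a second surface marker. The labels do not say whether the 2 replicates were separate mice or pools, or whether rTreg and aTreg cells came from the same animals. The p-values therefore measure only the spread between these libraries.

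Treg cells restrain immune responses and depend on the forkhead factor Foxp3. Resting Treg cells recirculate through lymphoid organs, guided by homing receptors such as the chemokine receptor CCR7, and divide little. Activated Treg cells have less of these receptors, carry adhesion molecules and receptors for tissue signals, and divide more. Foxp1 is a forkhead transcription factor known for holding naive T cells in quiescence. WT aTreg and rTreg cells thus start from different levels of many genes, and an equal fold change in both is an interaction of 0.

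Libraries held between 6373170 and 15268623 counts on genes. The subsets matched their CD44 gates, since Cd44 stood at 35.1 and 45.3 CPM (counts scaled to library size) in WT rTreg cells against 212.6 and 214.1 in WT aTreg cells. Foxp3 was between 429.2 and 645.5 CPM in every library. Xist and the Y-linked Ddx3y showed that replicate 1 and replicate 2 differed in sex in all 4 groups, with at most 3 Xist counts in each replicate 1 library and 0 Ddx3y counts in each replicate 2 library. Summed levels of marker genes of other cells differed widely between the lists. The summed level of 10 granulocyte markers was 0.157 to 4.35 CPM in the WT libraries. In replicates 1 and 2 of Foxp1-deficient cells it was 22.9 and 8.87 CPM in rTreg and 37.6 and 4.52 CPM in aTreg libraries. The genotypes were thus close in aTreg replicate 2, at 4.35 CPM in WT and 4.52 CPM in the Foxp1-deficient library. The 11 B cell markers summed to 174 to 251 CPM in rTreg and 653 to 821 CPM in aTreg libraries, most of it Ighm. The 6 stroma and endothelium markers summed to 116.3 to 292.8 CPM over all libraries, nearly all of it Pecam1. Of the tested markers in the 10 lists for T, B, plasma, NK, myeloid, granulocyte, erythroid and stromal cells, 0 passed the interaction test. Not all could be tested, for example 1 of 4 CD8 T cell, 1 of 6 erythroid and 3 of 6 stromal markers. The share over all genes was 0.323%, so 0 calls in such short lists do not bear on the presence of other cells. In bulk samples, fewer cells of a type and less RNA per cell cannot be told apart.

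The targeted gene itself was one of those whose genotype difference depended on the subset. Foxp1 (chr6:98925338-99522721, GRCm38) was at 353.5 and 383.8 CPM in WT rTreg cells and at 342 and 337.8 CPM in Foxp1-deficient rTreg cells. In aTreg cells it was at 234.5 and 230.3 CPM in WT and at 126 and 101.6 CPM in Foxp1-deficient libraries. Genotypes did not overlap in either subset, but the difference was small in rTreg cells, a log2 fold change of -0.12, and larger in aTreg cells, -1.03. The interaction was -0.92 ± 0.13 (SE; adjusted p = 0.0477 from the quasi-likelihood test of edgeR, adjusted over all genes tested by Benjamini-Hochberg). The call was lost with median-of-ratios size factors (edgeR adjusted p = 0.0519), without the replicate block (edgeR adjusted p = 0.288) and with a filter of 1 CPM in 2 libraries (edgeR adjusted p = 0.051). A gene-level count sums all exons of the transcript, deleted or not, so it does not check the deletion, and the annotated gene Gm20696 overlaps Foxp1 exons on the same strand.

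Across 14540 genes tested, the interaction was called for 47 genes (0.323%) at an adjusted p under 0.05 and a difference of effects of at least 1.5-fold, and for 48 (0.33%) by the adjusted p alone. The fold change was higher in aTreg cells for 26 of them (0.179% of genes tested) and lower for 21 (0.144%). The block for the replicate number decided these calls: without it, 0 genes were called by edgeR, 884 genes had an unadjusted p under 0.05, and the lowest adjusted p was 0.181. Leaving out any 1 library left between 1 and 79 higher and between 0 and 85 lower calls. With the block and all libraries, 1862 genes (12.8%) had an unadjusted p under 0.05. The genotype effect alone was called for 814 genes (5.6%) in rTreg cells, 421 up (2.9%) and 393 down (2.7%). In aTreg cells it was called for 586 (4.03%), 344 up (2.37%) and 242 down (1.66%). Without the block these totals were 266 and 77. The median interaction over all genes was -0.01. The median 95% confidence interval, unadjusted, reached 0.45 log2 units to either side, which is 1.37-fold. Smaller differences could not be seen for most genes, and a call after adjustment needed larger ones still. E2f1, for example, had an interaction of -1.41 and was not called (edgeR adjusted p = 0.0531). A gene without a call can therefore still differ by more than 1.37-fold.

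All 47 called genes were protein coding, and their interaction had the same sign in replicate 1 and replicate 2. It exceeded 1.5-fold in the called direction for 44 genes in replicate 1 alone and for 46 in replicate 2 alone. Such agreement follows largely from the selection, since a small p with 2 replicates needs similar values in both. It is no separate support for the calls. The absolute log2 effect was larger in rTreg cells for 36 genes and larger in aTreg cells for 11. In rTreg cells the 2 genotypes did not overlap for 45 of the 47 genes, against 45.1% of all genes tested, and in aTreg cells for 37, against 41.7%. Called genes had a median level of 61.3 CPM over all libraries, above the median of 21.3 CPM for genes tested. In the exons of 16 of the 47, another annotated gene also lies, protein coding for 5 (Foxp1, Golm1, Itga4, Mical1 and Plcb3), and their counts are less certain because the strand setting of the counting is not given in the sources used here.

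**Figure D1:**
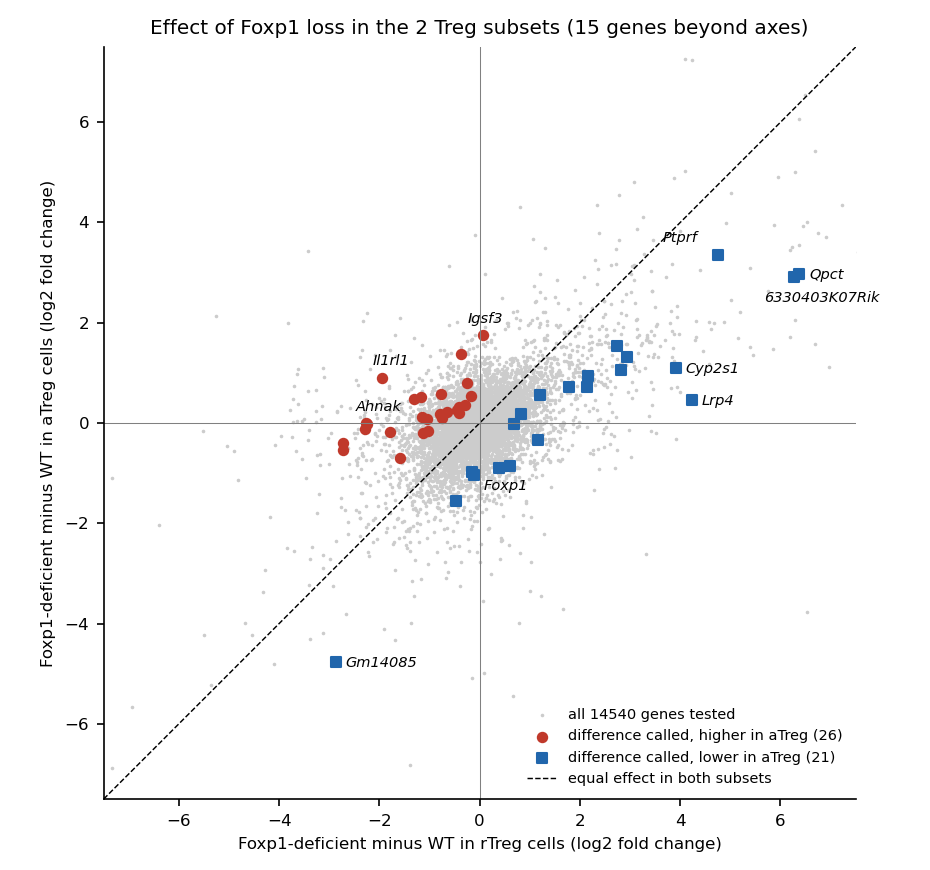
Each point is 1 gene, with the log2 fold change between genotypes in rTreg cells on the x axis and in aTreg cells on the y axis. Grey points are the genes tested, a few of which lie beyond the axes, with red circles the 26 and blue squares the 21 genes called by the interaction, and the dashed line marks equal effects. Red points lie mostly left of 0 on the x axis and near 0 on the y axis, and blue points mostly to the right and under the line.

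Of the 26 genes with a higher effect in aTreg cells, 16 were called down in rTreg cells and were not called in aTreg cells. Not being called does not show that a gene was level in aTreg cells, and Src, with a log2 fold change of -0.54 there (edgeR adjusted p = 0.0444), missed the 1.5-fold threshold alone. Ahnak (chr19:8989284-9076914), which encodes a giant scaffold protein linked to calcium signalling, had the smallest p of all genes. It fell from 319.2 and 399.3 CPM in WT to 68.1 and 80.6 CPM in Foxp1-deficient rTreg cells. In aTreg cells it was at 1356 and 1762 CPM in WT and at 1318 and 1800 CPM in Foxp1-deficient libraries, which overlap. Ahnak was thus 4.83-fold lower in rTreg cells that lacked Foxp1, while its log2 fold change in aTreg cells was 0.00, and the interaction was 2.27 ± 0.08 (SE; edgeR adjusted p = 7.8e-05). It was the single gene called in each of 8 fits that left out 1 library.

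Cd55 (chr1:130439027-130462744) encodes decay-accelerating factor, which protects cells from complement. It dropped from 44.8 and 69 CPM to 8.93 and 15 CPM in rTreg cells, and was at 14.6 and 31.7 CPM in WT and 19.4 and 24.8 CPM in Foxp1-deficient aTreg cells. WT rTreg cells were the group with the highest level. The Cd55 interaction was 2.23 ± 0.24 (edgeR adjusted p = 0.0232).

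Crip1 (chr12:113146316-113153879), a small LIM-domain protein, moved apart in the 2 subsets, from 65 and 73.5 CPM to 25.2 and 36.5 CPM in rTreg cells, and from 47.4 and 63.5 CPM to 67.9 and 91.5 CPM in aTreg cells. Genotypes did not overlap in either subset. The Crip1 interaction was 1.69 ± 0.13 (edgeR adjusted p = 0.00864), although its rise in aTreg cells was 1.44-fold and so under the threshold. Atp2b1, a plasma membrane calcium pump, fell from 252.1 and 279.4 CPM to 130.1 and 130.9 CPM in rTreg cells. In the 4 aTreg libraries it was at 250.3 to 285.8 CPM, with a mean of 284.4 CPM in WT and a lower mean of 254.8 CPM in Foxp1-deficient libraries.

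Sh3bgrl2, which encodes a small thioredoxin-like protein, fell from 29.7 and 19.8 CPM to 3.83 and 3.32 CPM in rTreg cells. Its aTreg levels were 28 and 19 CPM in WT and 21 and 14.6 CPM in Foxp1-deficient libraries, overlapping. Src, the prototype of the Src tyrosine kinases, was at 7.92 and 9.43 CPM in WT and 1.75 and 1.08 CPM in Foxp1-deficient rTreg cells. In aTreg cells Src was several times higher, at 57.6 and 52.7 CPM in WT and 35.5 and 40 CPM in Foxp1-deficient libraries, so that its genotypes did not overlap in either subset, with interactions of 1.38 in replicate 1 and 2.54 in replicate 2.

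Golm1, a Golgi membrane protein, was 2.22-fold lower in Foxp1-deficient rTreg cells and differed by 1.09-fold in aTreg cells. St8sia6, a sialyltransferase, fell from 203.7 and 267.9 CPM to 101.7 and 127.4 CPM in rTreg cells and lay between 66.8 and 110.3 CPM in all aTreg libraries. B4galnt4, an N-acetylgalactosaminyltransferase, was 4.86-fold lower in Foxp1-deficient rTreg cells and 1.08-fold lower in aTreg cells. The remaining members, named because the class is accounted for in full and not by rule, were Endod1, Psen2 (a catalytic subunit of gamma-secretase), Dennd4a, Slc25a24 (a mitochondrial carrier), Mical1 (an actin-oxidising enzyme), Lamc1 (a laminin chain) and Myo3b. Their interactions ran from 0.84 for Psen2 to 1.79 for Slc25a24. Lamc1 also had a log2 fold change of 0.58 in aTreg cells, just under the 1.5-fold threshold.

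Pou6f1, a POU-domain transcription factor, fell in both subsets, but less in aTreg cells. It went from 78.8 and 82.3 CPM to 25.8 and 27.4 CPM in rTreg cells, a 3.03-fold decrease, and from 75.9 and 84 CPM to 48.5 and 50.3 CPM in aTreg cells, a 1.62-fold decrease. The WT levels were alike, so the subsets differed in how far the gene fell.

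Il1rl1 and Tesc were called in opposite directions in the 2 subsets, the 2 genes of all 14540 for which this happened. Il1rl1 (chr1:40429570-40465415) encodes ST2, the receptor for the alarmin IL-33 and a marker of tissue-type Treg cells. It was low in rTreg cells, at 4.7 and 5.81 CPM in WT, and lower in Foxp1-deficient libraries, at 1.43 and 1.52 CPM. In aTreg cells it rose from 45.9 and 86.4 CPM to 87.8 and 159.8 CPM. The genotypes did not overlap in aTreg cells, but the lower Foxp1-deficient value was close to the higher WT value. The interaction was 2.84 ± 0.29 (edgeR adjusted p = 0.0203), a 7.18-fold difference between the effects. Tesc, a calcium-binding protein that inhibits calcineurin, went the other way: from 36.5 and 33.2 CPM up to 52.4 and 54.2 CPM in rTreg cells, and from 33.1 and 43.5 CPM down to 21 and 21.8 CPM in aTreg cells. Its interaction was -1.46 ± 0.18 (edgeR adjusted p = 0.0271).

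For 3 genes an increase was called in aTreg cells and no change in rTreg cells. Cldnd1, a claudin-domain membrane protein, was at 25.3 and 27.5 CPM in WT and 23 and 21.8 CPM in Foxp1-deficient rTreg cells, and rose from 116.5 and 103.2 CPM to 195.4 and 186.3 CPM in aTreg cells. Igsf3, an immunoglobulin superfamily protein, was between 11.8 and 13.8 CPM in all 4 rTreg libraries and rose from 4.17 and 5.39 CPM to 15.5 and 17.1 CPM in aTreg cells. WT aTreg cells were the group that stood apart for Igsf3. Rap1gap2, which switches off the adhesion GTPase Rap1, rose 2.58-fold in aTreg cells. Neither subset alone passed for 5 genes, among them Tnfsf10 (the death ligand TRAIL), Emp3, Plcb3 (a phospholipase C) and Hook3 (a dynein adaptor), whose log2 effects were between -0.46 and -0.17 in rTreg cells and between 0.19 and 0.53 in aTreg cells.

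**Figure D2:**
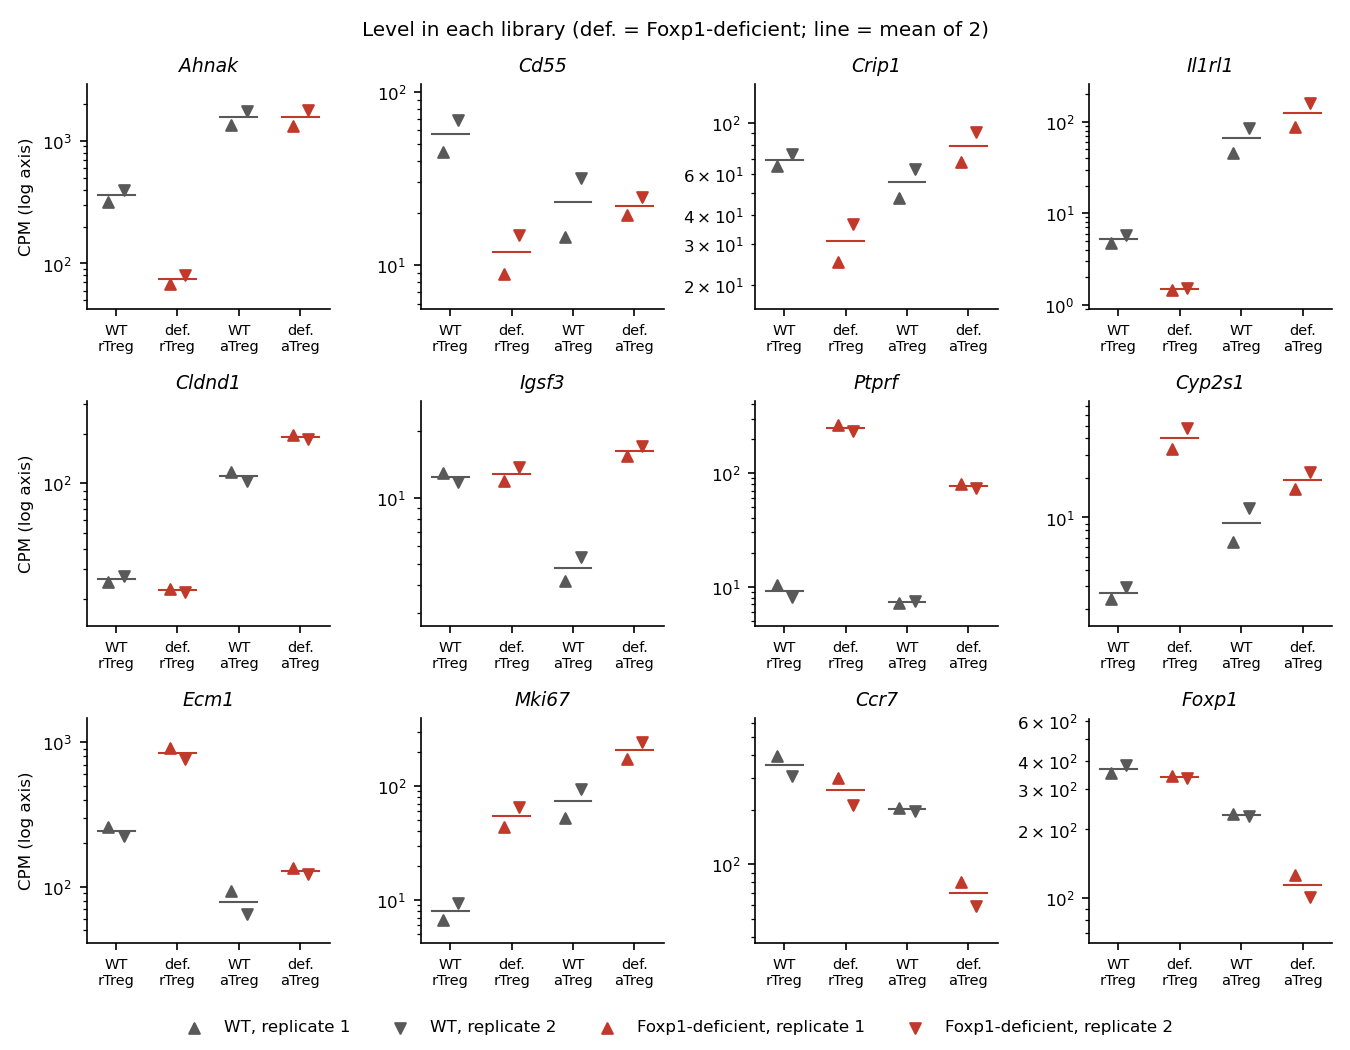
Each panel gives the level of 1 gene in CPM, on a log axis, in the 4 groups. Grey symbols are WT and red symbols Foxp1-deficient libraries, triangles pointing up are replicate 1 and pointing down replicate 2, and lines are means of 2 libraries. In the Ahnak panel the red points fall far under the grey ones in rTreg cells and coincide with them in aTreg cells, while the Ccr7 and Foxp1 panels separate most in aTreg cells.

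Among the 21 genes with a lower effect in aTreg cells, 10 rose in both subsets and rose further in rTreg cells. Ptprf (chr4:118208213-118291405), a receptor-type tyrosine phosphatase, went from 10.3 and 8.17 CPM to 265.2 and 231.7 CPM in rTreg cells, a 26.9-fold rise. The aTreg libraries went from 7.24 and 7.44 CPM to 79.3 and 73.1 CPM, a 10.2-fold rise. WT levels were alike in the 2 subsets and no libraries of different genotype overlapped. Its interaction was -1.40 ± 0.13 (edgeR adjusted p = 0.0192).

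Cyp2s1, a cytochrome P450 enzyme, rose from 2.4 and 2.99 CPM to 33.3 and 47.6 CPM in rTreg cells and from 6.47 and 11.8 CPM to 16.4 and 22.4 CPM in aTreg cells. Hectd2, a ubiquitin ligase of the HECT family, went from 5.53 and 5.34 CPM to 36.2 and 41 CPM and, in aTreg cells, from 9 and 11.7 CPM to 20 and 23.3 CPM. For both genes WT aTreg cells were above WT rTreg cells, and Foxp1-deficient aTreg cells were below Foxp1-deficient rTreg cells. Ecm1, a secreted matrix protein, rose from 259.6 and 224.4 CPM to 913.9 and 762.5 CPM in rTreg cells and from 92.7 and 65.1 CPM to 133.9 and 123.1 CPM in aTreg cells.

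Phlpp1, a phosphatase that acts on AKT, rose 4.45-fold in rTreg cells and 1.91-fold in aTreg cells, to 239.4 and 247.1 CPM and to 161 and 161.9 CPM. Qpct, a glutaminyl cyclase, was at 0.461 and 0.55 CPM in WT rTreg cells and at 41.6 and 43.6 CPM in Foxp1-deficient rTreg cells. In aTreg cells Qpct was at 0.768 and 1.8 CPM in WT and at 9.56 and 11.9 CPM in Foxp1-deficient libraries. Its interaction of -3.40 ± 0.44 (edgeR adjusted p = 0.0313) rests on few counts in the WT libraries. The other members were 6330403K07Rik, with a comparably low WT rTreg level of 0.921 and 0.314 CPM, Rhbdl3, of the rhomboid family, and Top2a and Mki67, described with the cell cycle genes.

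An increase called in rTreg cells and no call in aTreg cells held for 5 genes. Itga4 (chr2:79255426-79333123), the α4 integrin chain that pairs with β1 and β7 for entry into inflamed tissue and gut, was the most abundant. It rose from 565.2 and 670.9 CPM to 1356 and 1470 CPM in rTreg cells, and from 705.6 and 820.3 CPM to 1102 and 1150 CPM in aTreg cells. Genotypes did not overlap in either subset, and its aTreg rise of 1.48-fold fell just short of the fold threshold. The Itga4 interaction was -0.63 ± 0.08 (edgeR adjusted p = 0.0304). Spsb1, a SOCS-box adaptor, was at 23.9 and 20.9 CPM in WT and 49.7 and 50.3 CPM in Foxp1-deficient rTreg cells. In aTreg cells Spsb1 was lower without Foxp1, at 17.3 and 18 CPM against 19.9 and 24.4 CPM, a difference that was not called. Slamf1, a co-stimulatory receptor, and Slc37a1, a sugar-phosphate exchanger, rose 1.6-fold and 1.77-fold in rTreg cells. Lrp4, a receptor of the LDL receptor family, had 3 and 5 counts in the WT rTreg libraries, and its interaction of -3.77 ± 0.49 is the least precise of the 47.

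The decrease was called in aTreg cells and not in rTreg cells for 4 genes, Dusp6, Ccr7, Nsg2 and Foxp1. Ccr7 (chr11:99144196-99155077), the lymph node homing receptor, was at 396.6 and 307.6 CPM in WT and 298 and 212 CPM in Foxp1-deficient rTreg cells. Levels in aTreg cells fell from 204.8 and 196.4 CPM to 79.6 and 59.1 CPM. The genotypes did not overlap in either subset, and the fold decrease was 1.39 in rTreg and 2.94 in aTreg cells, with an interaction of -1.08 ± 0.14 (edgeR adjusted p = 0.0316). Dusp6 (chr10:99263231-99267489), the phosphatase that limits ERK signalling, was slightly higher in Foxp1-deficient rTreg cells, at 68.7 and 58.4 CPM against 58.8 and 40.2 CPM, which overlap narrowly. In aTreg cells it fell from 87.2 and 78.2 CPM to 51.1 and 38.4 CPM. Nsg2, a vesicle protein known from neurons, fell 1.97-fold in aTreg cells and differed by 1.12-fold in rTreg cells. Gm14085 (an annotated coding gene without an assigned function here) fell in both subsets and further in aTreg cells, from 53.5 and 80.3 CPM to 2.26 and 2.66 CPM.

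**Figure D3:**
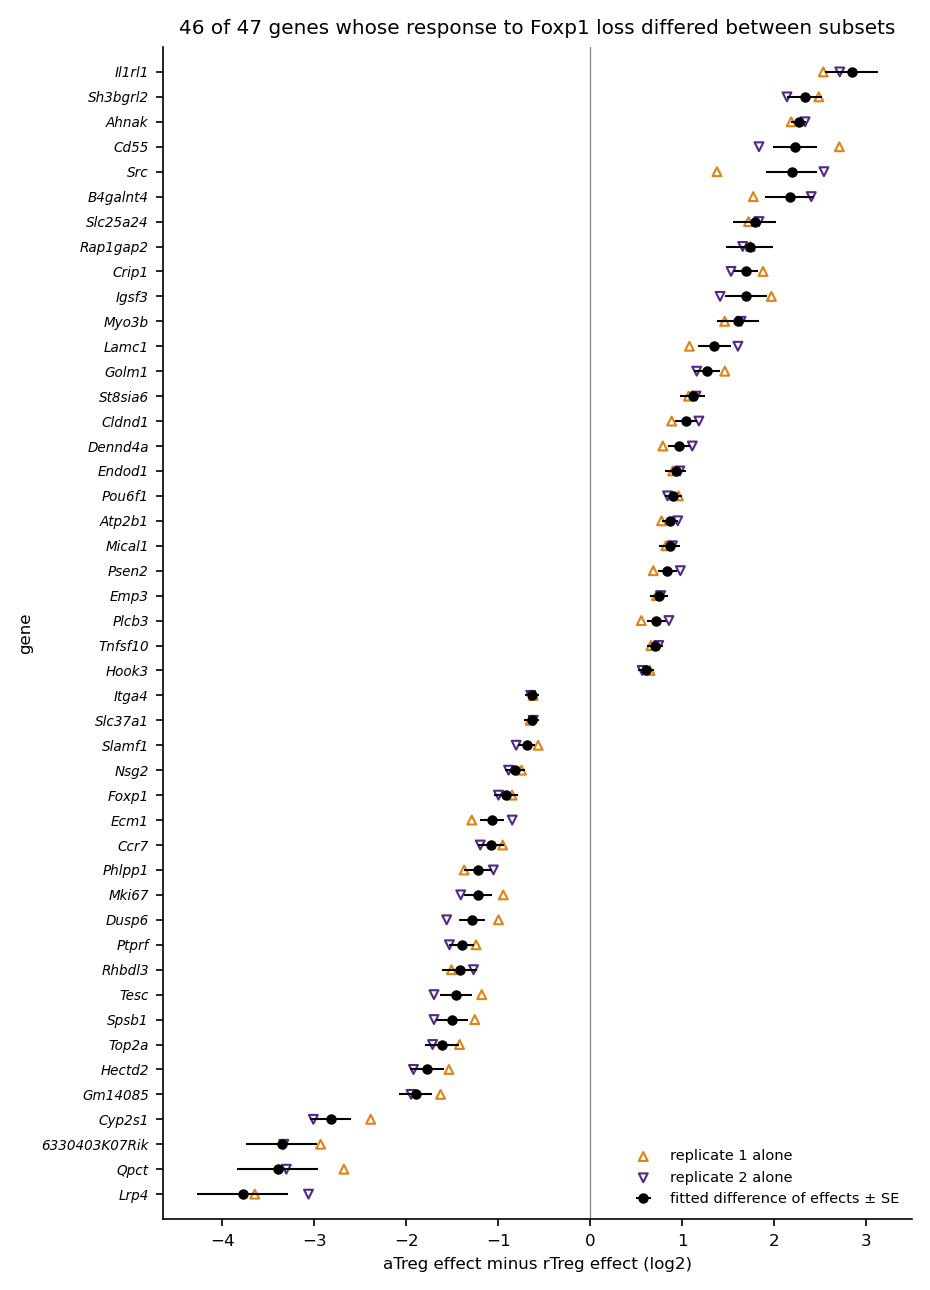
The interaction (aTreg effect minus rTreg effect, log2) is given for 46 of the 47 called genes. Black points with bars are the fit with its standard error, and open triangles are the value within replicate 1 and within replicate 2. Both triangles lie on the same side of 0 for every gene plotted, with the widest gaps for Src and Cd55. The genes were called from these same values, so this agreement is no separate support.

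Cell division genes rose in both subsets. Of 60 mitosis and chromosome segregation genes tested, 45 were called up in rTreg cells (against 2.9% of all genes) and 44 in aTreg cells (against 2.37%), and 39 in both. Their median change was 1.77 log2 units in rTreg and 1.21 in aTreg cells, against 0.00 for all genes in each. The interaction was below 0 for 48 of the 60, with a median of -0.63 against -0.01 for all genes, but 2 passed the test (3.33%, against 0.323% of all genes). Mki67 (chr7:135689784-135716361), which encodes the proliferation antigen Ki-67, rose from 6.72 and 9.43 CPM to 43.4 and 65.4 CPM in rTreg cells and from 52.5 and 94.8 CPM to 172.5 and 244.5 CPM in aTreg cells. Top2a (chr11:98992943-99024189), the topoisomerase that untangles chromosomes, rose from 6.63 and 9.35 CPM to 53.2 and 68.5 CPM and from 31.3 and 58.1 CPM to 92.1 and 128.2 CPM. No libraries of different genotype overlapped within a subset. The interactions were -1.22 ± 0.15 for Mki67 and -1.61 ± 0.18 for Top2a (edgeR adjusted p = 0.0271 for each). With limma-voom in place of edgeR, the Mki67 call was lost (adjusted p = 0.051) and the Top2a call was kept (adjusted p = 0.0408).

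The direction of this difference depended on the scale. Foxp1-deficient aTreg cells gained 134.9 CPM of Mki67 over WT, and Foxp1-deficient rTreg cells gained 46.3 CPM, so that the fold change was larger in rTreg cells and the gain in CPM larger in aTreg cells. The same held for Top2a, with gains of 65.4 and 52.9 CPM. Of the 47 called genes, the difference of CPM differences had the opposite sign to the log2 interaction for 5, which were also Gm14085, 6330403K07Rik and Src. The 60 mitosis genes summed to 377.7 and 396.9 CPM in WT and 712.9 and 841.3 CPM in Foxp1-deficient rTreg cells. In aTreg cells they summed to 657.2 and 879.6 CPM in WT and 1341 and 1747 CPM in Foxp1-deficient libraries. The fold rise of these sums was similar in the 2 subsets, so the summed level did not show the lower fold change in aTreg cells. The median interaction of the list was -0.04 in replicate 1 and -0.70 in replicate 2, on log2 CPM with a prior count of 2, with 34 and 49 of the 60 members below 0. The list's negative median thus came mainly from 1 of the 2 replicates. Relative to all genes it went from -0.62 to -0.28 without WT aTreg replicate 2.

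Of 50 DNA replication genes, 16 were called up in rTreg cells (against 2.9% of all genes) and 12 in aTreg cells (against 2.37%). Their median interaction was -0.04, and 0 passed the interaction test, where the share over all genes was 0.323%. Mcm5, a subunit of the replicative helicase, rose by 0.61 in rTreg and by 0.55 in aTreg cells on the log2 scale. The rise in aTreg cells, 1.47-fold, missed the 1.5-fold threshold alone (edgeR adjusted p = 0.00524). The Mcm5 interaction was -0.05 (95% confidence interval -0.28 to 0.17). E2f1, a transcription factor of the G1-to-S transition, went from 2.76 and 2.91 CPM to 13.7 and 13.6 CPM in rTreg cells and from 6.8 and 8.01 CPM to 12.8 and 13.9 CPM in aTreg cells, reaching similar levels in the 2 Foxp1-deficient groups. Its interaction of -1.41 had an edgeR adjusted p of 0.0531.

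Of 30 genes of Treg identity and suppression, 6 were called down in rTreg cells (against 2.7% of all genes), and 1 was called up and 2 down in aTreg cells (against 2.37% and 1.66%). The interaction was called for 0 of the 30, against 0.323% of all genes. Their median interaction was 0.34, with 22 above 0, and the median effect was -0.39 in rTreg and 0.10 in aTreg cells. The median interaction was 0.08 in replicate 1 and 0.54 in replicate 2. Taken relative to all genes it was 0.35 with all libraries, 0.17 without WT aTreg replicate 2 and 0.53 without WT aTreg replicate 1. Foxp3 was at 491.8 and 645.5 CPM in WT and 429.2 and 480.1 CPM in Foxp1-deficient rTreg cells. This log2 fold change of -0.32 missed the 1.5-fold threshold alone (edgeR adjusted p = 0.0497, and 0.324 without the replicate block). In aTreg cells Foxp3 was at 530.3 and 535.9 CPM in WT and 496.9 and 587.2 CPM in Foxp1-deficient libraries, a log2 fold change of 0.02. The Foxp3 interaction was 0.33 (edgeR adjusted p = 0.289, unadjusted 95% interval 0.06 to 0.61). Ctla4, the inhibitory receptor through which Treg cells remove co-stimulatory ligands, was called down in rTreg cells, by a log2 fold change of -0.89. In aTreg cells Ctla4 had -0.51, a 1.42-fold decrease that missed the 1.5-fold threshold alone (edgeR adjusted p = 0.0103). Its interaction of 0.38 (edgeR adjusted p = 0.188) does not show that the subsets differed. Ikzf2, which encodes Helios, was close to the threshold, at 466.3 and 479.7 CPM against 347.8 and 336.8 CPM in rTreg cells and 1209 and 1010 CPM against 1255 and 1302 CPM in aTreg cells (interaction 0.68, edgeR adjusted p = 0.0531). Il2ra, the high-affinity IL-2 receptor chain, had an interaction of -0.21 (edgeR adjusted p = 0.375), and Il10 was at 0.319 CPM or less in all rTreg libraries, too low for a comparison.

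Other genes of the resting state and of homing that were fixed by name fell short of the threshold as well. Bach2, a repressor of effector genes, had an interaction of -0.99 (edgeR adjusted p = 0.0752), and S1pr1, the receptor for exit from lymphoid organs, 0.85 (edgeR adjusted p = 0.106). Bach2 and Ccr7 both fell in aTreg cells, and S1pr1 rose there by 0.61 on the log2 scale. Interactions of Cd44, Klf2, Tcf7, Lef1, Satb1, Id2, Il7r, Pik3ip1, Prdm1, Icos and Cdk1 were between -0.74 and 0.70, and their edgeR adjusted p-values ran from 0.15 for Icos to 0.859 for Satb1.

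In 25 gene lists, medians of the interaction mostly lay near 0. Among the 77 cytosolic ribosomal protein genes, 75 had an interaction below 0 (against 51.7% of all genes), with a median of -0.26. Of the 77, 0 passed the test, against 0.323% of all genes. Their summed level rose from 43770 and 41830 CPM to 52340 and 50110 CPM in rTreg cells and was 35270 and 31660 CPM against 33290 and 33410 CPM in aTreg cells. The median was -0.33 in replicate 1 and -0.19 in replicate 2. The 76 oxidative phosphorylation genes had a median interaction of -0.09, with 62 below 0. Their median genotype effect was 0.26 in rTreg and 0.13 in aTreg cells. The genotype effect was called for 0 of them in either subset, against 5.6% of all genes in rTreg and 4.03% in aTreg cells. Positive medians were found for 16 integrin subunits, 0.52, and for 23 effector and helper lineage factors, 0.45. Each list had 0 higher calls, where the share over all genes was 0.179%. Both were smaller in replicate 1, 0.24 and 0.12, than in replicate 2, 0.63 and 0.33. Relative to all genes, the integrin median went from 0.53 to 0.30 without Foxp1-deficient rTreg replicate 2, and the effector median from 0.46 to 0.18 without WT rTreg replicate 1. Among integrins, Itga4 was lower, and Itgae (the αE chain of CD103) and Itgb8 (which activates TGF-β) had interactions of 0.98 and 1.37 with edgeR adjusted p of 0.0531 and 0.0605. In the effector list, Maf, a factor of cytokine and effector programs, had log2 fold changes of -0.90 in rTreg and 0.14 in aTreg cells and an interaction of 1.04 (edgeR adjusted p = 0.0536).

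**Figure D4:**
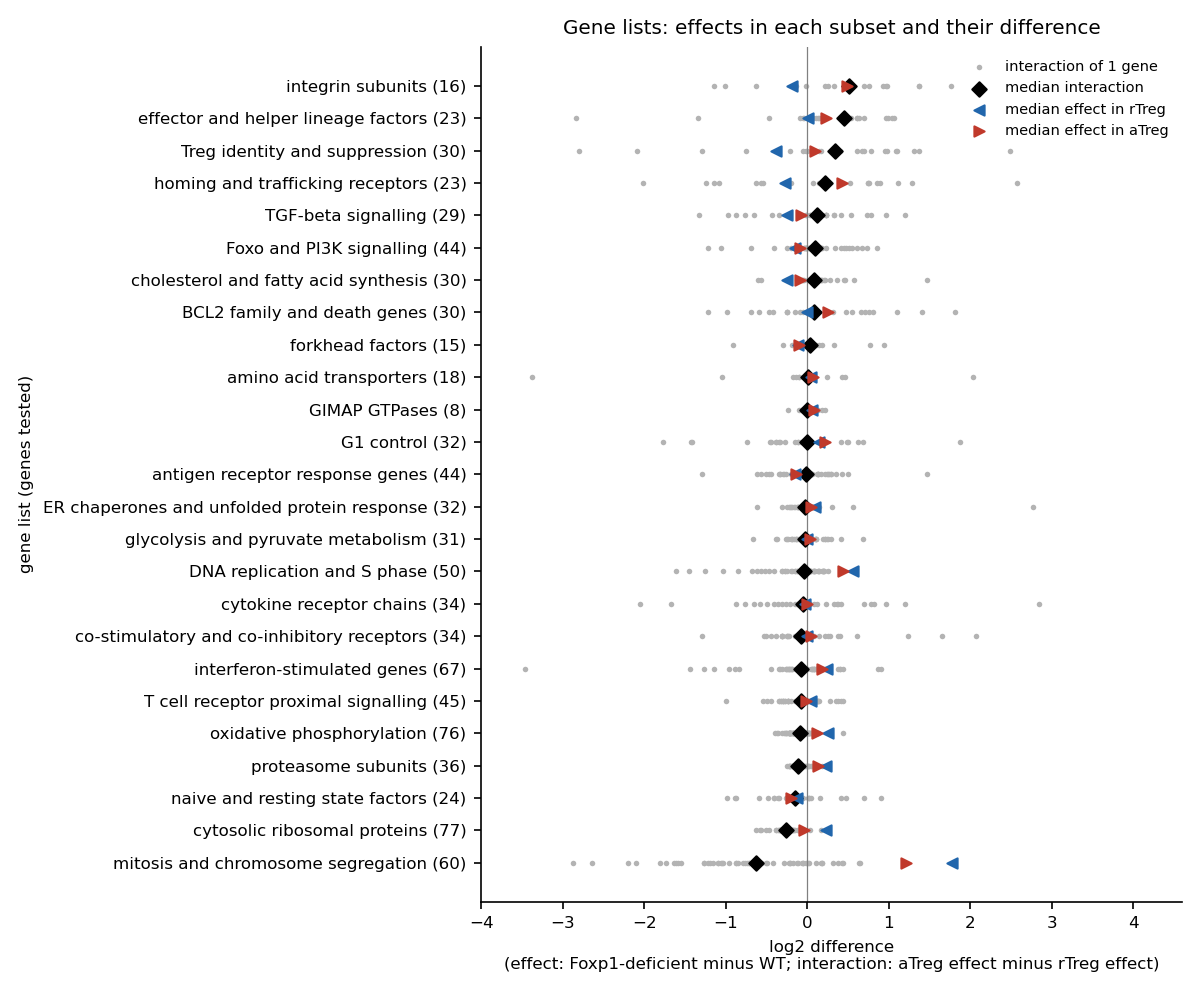
Each row is a gene list with the number of genes tested. Grey points are the interactions of single genes, black diamonds the list's median interaction, and blue and red triangles the median genotype effect in rTreg and aTreg cells, all on a log2 scale. The mitosis list stands at the bottom with both effects well above 0 and a negative median interaction, and most other medians lie near 0.

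Most genes called in one subset and not in the other did not pass the test of the difference. Of the genes called in either subset, 812 were called in 1 alone, 520 in rTreg and 292 in aTreg cells. The interaction was called for 21 and 7 of them, against 0.323% of all genes tested. These genes were picked by values that also enter the interaction, so a share above that of all genes is partly built in. Of these 812, 675 had the same sign in the other subset. The unadjusted 95% interval of the interaction included 0 for 218 of the 520 and for 161 of the 292. Of 195 genes called up in both subsets, 158 had an interaction below 0 (against 51.7% of all genes) and 10 were called. Of 97 called down in both, 2 were called, where the share over all genes was 0.323%.

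Promoters were searched for the forkhead core word TAAACA on either strand, since Foxp1 binds such words. RefSeq promoters (GRCm38.p6, 250 bases before to 50 after a start site) were matched for 37 of the 47 genes, 47 promoters in all. The word was in 6 of the 47 promoters (12.8%), against 13.4% of all RefSeq promoters and 8.67% of those of genes tested. By gene it was found for 3 of 37 (8.11%), Il1rl1, Psen2 and Foxp1, against 10.2% of genes tested. The 250 bases upstream of 1 start site are shown for each of these, chosen as the promoters with the word that overlap no annotated untranslated exon, and for Ahnak, the gene with the smallest p, whose promoter lacks the word. Capitals mark TAAACA or its reverse complement TGTTTA.
Il1rl1, chr1:40429320-40429569, plus strand: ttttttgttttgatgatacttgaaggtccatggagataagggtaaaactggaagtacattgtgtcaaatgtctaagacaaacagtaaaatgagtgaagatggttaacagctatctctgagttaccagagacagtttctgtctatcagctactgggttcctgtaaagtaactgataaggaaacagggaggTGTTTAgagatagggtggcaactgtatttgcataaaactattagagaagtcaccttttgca
Psen2, chr1:180245951-180246200, minus strand: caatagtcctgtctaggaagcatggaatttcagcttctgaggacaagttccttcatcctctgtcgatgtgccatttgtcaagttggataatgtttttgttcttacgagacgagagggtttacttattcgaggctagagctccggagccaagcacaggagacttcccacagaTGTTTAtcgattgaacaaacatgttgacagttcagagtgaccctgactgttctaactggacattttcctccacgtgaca
Foxp1, chr6:99266516-99266765, minus strand: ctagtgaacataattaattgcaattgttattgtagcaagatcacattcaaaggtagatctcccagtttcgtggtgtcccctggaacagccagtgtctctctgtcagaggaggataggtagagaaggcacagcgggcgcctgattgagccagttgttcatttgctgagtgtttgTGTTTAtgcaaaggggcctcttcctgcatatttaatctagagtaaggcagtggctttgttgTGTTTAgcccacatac
Ahnak, chr19:8989034-8989283, plus strand: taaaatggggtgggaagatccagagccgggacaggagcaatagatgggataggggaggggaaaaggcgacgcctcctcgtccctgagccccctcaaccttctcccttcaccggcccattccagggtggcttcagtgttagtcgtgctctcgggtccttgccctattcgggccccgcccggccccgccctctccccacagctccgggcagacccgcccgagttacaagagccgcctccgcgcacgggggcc
The first bases of the words lie at -61 for Il1rl1, at -79 for Psen2, and at -77 and -16 for Foxp1, counted from the start site. A match is a description of the letters and no evidence of binding. The E2F word TTTCCCGC was in 1 of the 47 promoters (2.13%), that of Spsb1, against 1.99% of promoters of genes tested, and in neither the Mki67 nor the Top2a promoter.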

How the data were processed

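RNA was extracted with Trizol from sorted rTreg and aTreg cells, prepared with the NEBNext Ultra kit and sequenced on an Illumina HiSeq X. The authors trimmed the paired reads, removed duplicates and deposited whole-number counts of reads per gene. The submitters' processing notes name HISAT2 2.0.5, HTSeq and the mm10 build. The deposited FPKM values are the same counts divided by library total and gene length (relative spread 0.000538), and were used for gene length alone. Coordinates are from GENCODE M21 (GRCm38).

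All 8 libraries entered 1 fit in R 4.3.3 with edgeR 4.0.16 (glmQLFit and glmQLFTest, TMM), modelled by group with a block for the replicate number, which leaves 3 residual degrees of freedom. The pairing comes from the paired analysis in the study's methods; deviations of same-numbered libraries correlated at 0.355 to 0.597 between groups. Of 27594 genes, 14540 passed filterByExpr (minimum count 10). Genes were called at a Benjamini-Hochberg adjusted p under 0.05 and 1.5-fold. On simulated data for 14088 genes, the interaction test recovered 78 of 100 genes changed by 1 and 96 of 100 changed by 2 log2 units, and called 19 unchanged genes. The changed genes had a mean of at least 5 CPM, and the simulated replicate effect was shared by all 4 groups. In the data, deviations correlated at 0.597 and 0.548 within a genotype and at 0.355 to 0.462 across genotypes. The simulated rates therefore need not hold for the data. CPM are TMM-normalized. Depth was 6373170 to 15268623 counts, and 3 counts, taken as the floor, are 0.196 to 0.471 CPM; floors cover counting error alone.

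The members, gene lists and tests were chosen with earlier results of these data known. Named genes were, in each direction, the 10 with the smallest p and the 5 with the largest interaction among those with a mean of at least 5 CPM, genes called in opposite directions, and 24 genes listed by name. Results for a few genes are not reported here. Alternatives were no block, a block within genotype, limma 3.58.1 voom without and with sample weights, size factors by median of ratios, DESeq2 1.42.0, other filters, robust dispersion, removal of a trend with gene length, and leaving out libraries.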

Additional observations from a re-analysis of the deposited data

Results flagged for a closer look

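The effect of Foxp1 loss differed between the subsets by a direct test of the difference, the interaction term of edgeR, for 26 genes with a higher and 21 with a lower log2 fold change in aTreg than in rTreg cells. Interactions in log2 units follow for 46 of them. Among the higher, they were Il1rl1 (2.84), Sh3bgrl2 (2.33), Ahnak (2.27), Cd55 (2.23), Src (2.19), B4galnt4 (2.17), Slc25a24 (1.79), Rap1gap2 (1.73) and Crip1 (1.69). In the middle of that range came Igsf3 (1.69), Myo3b (1.61), Lamc1 (1.35), Golm1 (1.27), St8sia6 (1.11), Cldnd1 (1.04), Dennd4a (0.97), Endod1 (0.93) and Pou6f1 (0.90). The smallest were Atp2b1 (0.87), Mical1 (0.87), Psen2 (0.84), Emp3 (0.75), Plcb3 (0.72), Tnfsf10 (0.70) and Hook3 (0.61). Among the lower, the most negative were Lrp4 (-3.77), Qpct (-3.40), 6330403K07Rik (-3.35), Cyp2s1 (-2.82), Gm14085 (-1.90), Hectd2 (-1.77) and Top2a (-1.61). These were followed by Spsb1 (-1.50), Tesc (-1.46), Rhbdl3 (-1.42), Ptprf (-1.40), Dusp6 (-1.28), Mki67 (-1.22) and Phlpp1 (-1.22). Closest to 0 were Ccr7 (-1.08), Ecm1 (-1.07), Foxp1 (-0.92), Nsg2 (-0.82), Slamf1 (-0.69), Slc37a1 (-0.63) and Itga4 (-0.63). No group had enough libraries for a test of single outlying values.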

How the results depend on the processing

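The calls depend on how the replicates enter the fit. Without the replicate block, 0 higher and 0 lower interactions were called, against 26 and 21, and the genotype effect was called for 266 genes in rTreg and 77 in aTreg cells, against 814 and 586. A block within each genotype, which treats same-numbered rTreg and aTreg libraries as pairs, gave 187 and 130, and 1035 calls in aTreg cells. DESeq2 gave 125 and 73, no filter on low counts 236 and 153 (1035 in aTreg cells), and robust dispersion 88 and 60. limma-voom, sample weights, other size factors, a 1 CPM filter and removal of the length trend gave between 24 and 27 higher and between 20 and 25 lower calls. limma-voom shared 21 of the 26 and 18 of the 21 genes, and 6330403K07Rik, Mki67, B4galnt4, Src, Qpct, Lamc1, Myo3b and Hook3 lost their call. Leaving out 1 library gave 1 to 79 higher and 0 to 85 lower interactions, 214 to 861 calls in rTreg and 117 to 537 in aTreg cells. Higher and lower interactions numbered 9 and 10 without WT_rTreg replicate 1, 2 and 0 without WT_rTreg replicate 2, 79 and 85 without WT_aTreg replicate 1, 11 and 15 without WT_aTreg replicate 2, 18 and 10 without cKO_aTreg replicate 1, and 1 (Ahnak) and 0 without cKO_aTreg replicate 2 or either cKO_rTreg library. In such a fit the lone library of a group is assumed to vary like the others. With 1 replicate number left out there is no test, and 25 and 24 of the higher and 21 and 20 of the lower genes kept direction and fold, as did 559 of the aTreg calls without replicate 1. Medians of the mitosis list stayed below the median of all genes under each alternative, by -0.80 to -0.28. None of the 47 called genes changed its direction under an alternative that kept both replicate numbers or left out 1 of them. The genes were selected from these same libraries, so their kept direction is no separate support. DESeq2 gave Lrp4 no adjusted p. The cause of these differences was not tested.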

Other observations

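Under the block within genotype, which is valid if the rTreg and aTreg cells of one number came from the same mice, more members of several lists passed. In the Treg identity list these were Itgae, Itgb8, Ikzf2, Icos, Entpd1 and Capg, 6 of 30, all with a higher effect in aTreg cells, against 1.29% of all genes tested in that fit. Of 23 homing genes, 5 were higher and 4 lower, against 1.29% and 0.894%. Of 60 mitosis genes, 7 were lower (Kif11, Top2a, Cenpf, Tpx2, Mki67, Kif4 and Kif18b), against 0.894%. Edge cases of the main fit were Plec, a cytoskeletal linker, with an adjusted p of 0.0339 by edgeR but an interaction of 0.56, under 1.5-fold, and Inf2, a formin, with an interaction of 0.65 and an adjusted p of 0.0515 by edgeR, the first gene past the threshold.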
